A study of Sus scrofa with 70 samples.

Results

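The glutathione peroxidases GPX1 to GPX8 were followed through the boar reproductive tract. The members were the 8 genes whose name in the merged annotation was GPX1 to GPX8, and the level of each was the sum of the TPM (a share of the library scaled by transcript length, summing to 1000000) of its transcripts. They made up 8 of the 35680 genes in the expression table. All 8 were found, with 34 transcripts between them (13 from Ensembl and 21 from the long reads), and no transcript joined a member to another gene. GPX2 did not pass the filter of 1 TPM or more in 3 or more libraries, so 7 members of 19911 genes entered the tests.

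Glutathione peroxidases reduce hydrogen peroxide and lipid hydroperoxides with electrons from glutathione. In several of them the catalytic residue is selenocysteine, which is read from a UGA codon that otherwise stops translation, and in the rest it is cysteine. In male reproduction GPX4 is known from the sperm midpiece capsule and, as a nuclear form with its own first exon, from the sperm head, while GPX5 is a selenium-free enzyme secreted by the epididymis. GPX1 is the cytosolic enzyme of most cells, GPX2 the form of gut epithelium, GPX3 the form secreted into plasma, GPX6 a form first known from olfactory tissue, and GPX7 and GPX8 belong to the endoplasmic reticulum.

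The study sampled the testis and epididymis and the accessory glands (bulbourethral, prostate and vesicular) of untreated boars aged 12 months. Banna mini-pigs (BMI) are an inbred line made from Diannan small-ear pigs (DSE) by mating close relatives, and DSE were the second breed, so the line is compared with the breed it came from. Each breed and gland had 3 RNA-seq libraries (30 in all, from short reads) and 1 Iso-seq library (10 in all, from full-length long reads). The sources used here do not give the boar behind each library or the region of the epididymis, so p-values measure the spread between these samples. The Iso-seq isoform table held 231413 to 458697 full-length reads per library. These are the reads of the isoforms kept in it and fewer than the library's own total, so full-length reads are given below as counts and not as rates. Read totals of the RNA-seq libraries stand in the study's supplement and were not used here, and TPM itself keeps no depth.

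Testis, epididymis, prostate gland and vesicular gland carried their own markers, and no list was drawn up for bulbourethral gland alone. All 9 spermatid markers were at 1 TPM or more in testis, where PRM1 averaged 51526 TPM, and each epididymis library had 6 to 8 of 8 epididymal markers at 1 TPM or more, among which CST11 averaged 2308 TPM although it was below 1 TPM in BMI replicate 1 and DSE replicate 2. Among the accessory glands, MSMB averaged 131479 TPM in prostate gland and SPMI 108870 TPM in vesicular gland. Some libraries stood apart. DSE testis replicate 2 had a summed spermatid level of 25858 TPM against 77558 to 117794 in the other 5 testis libraries, and a summed Leydig cell level of 63514 TPM against 18595 to 32398. BMI prostate gland replicate 2 had 79994 TPM of PSP-I, a seminal plasma protein gene, against 3.84 at most in the other prostate libraries, and 92.7 TPM of HOXB13 against 264 to 297. Summed skeletal muscle markers were 746 TPM in BMI epididymis replicate 1 against 100.1 at most in the other 5 epididymis libraries, and in bulbourethral gland 1797 TPM in DSE replicate 3 and 514 TPM in BMI replicate 1 against 32.4 at most. In bulk tissue, fewer cells of a type and less RNA per cell cannot be told apart.

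The catalytic codon separates the members, so the 39 bases around it are shown for all 8 (RefSeq, Sscrofa11.1, the build of the deposited annotation; 5′ to 3′ on the coding strand, with the catalytic codon in capitals).
GPX1: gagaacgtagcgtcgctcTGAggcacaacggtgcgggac
GPX2: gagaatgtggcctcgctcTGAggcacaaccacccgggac
GPX3: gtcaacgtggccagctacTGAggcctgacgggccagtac
GPX4: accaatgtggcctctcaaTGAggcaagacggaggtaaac
GPX5: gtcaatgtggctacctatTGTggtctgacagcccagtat
GPX6: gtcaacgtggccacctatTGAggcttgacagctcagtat
GPX7: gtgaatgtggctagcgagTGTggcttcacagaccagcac
GPX8: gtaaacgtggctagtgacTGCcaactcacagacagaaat
They lie at chr13:31917162-31917200 (GPX1, minus strand), chr7:89011328-89011366 (GPX2, minus), chr16:71984080-71984118 (GPX3, minus), chr2:77322615-77322653 (GPX4, minus), chr7:22292441-22292479 (GPX5, plus), chr7:22264230-22264268 (GPX6, minus), chr6:159593757-159593795 (GPX7, minus) and chr16:34337163-34337201 (GPX8, plus), each within 1 coding exon. The codon was TGA, annotated as selenocysteine, in GPX1, GPX2, GPX3, GPX4 and GPX6. It was TGT in GPX5 and GPX7 and TGC in GPX8, annotated as cysteine. GPX5 and GPX6 were the closest pair over this window, with 33 of 39 bases identical, and over the RefSeq proteins, with 78.1% of aligned residues identical. The next closest proteins were GPX3 and GPX6 (74.7%), GPX3 and GPX5 (68.0%), GPX1 and GPX2 (65.8%), and GPX7 and GPX8 (53.2%). GPX5 and GPX6 are also neighbours on chromosome 7, on opposite strands.

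The family's summed level was highest in testis and in epididymis. Testis averaged 3683 ± 426 TPM (SD, n = 6 libraries here and for every gland below) and epididymis 2681 ± 3279. BMI epididymis replicate 2 alone held 9343 TPM, and without it the epididymis mean was 1348 ± 346 TPM (n = 5). Vesicular gland (599 ± 308 TPM), bulbourethral gland (590.3 ± 76.3) and prostate gland (525 ± 80.1) lay lower. GPX4 supplied 66.4% ± 22.0 of the family's TPM in testis, and GPX5 supplied between 0.436% and 90.4% in epididymis. In vesicular gland GPX6 supplied 52.0% to 59.0% in the BMI libraries but 13.2% to 23.6% in the DSE libraries, where GPX4 supplied more (25.6% to 44.9%). GPX1 and GPX4 together led in prostate and bulbourethral gland, with 26.6% ± 4.68 and 48.7% ± 14.4 in the first and 41.7% ± 6.90 and 45.4% ± 6.53 in the second. By mean log2 level, testis was the highest gland for GPX3 and GPX4, epididymis for GPX1 and GPX5, vesicular gland for GPX6, and bulbourethral gland for GPX7 and GPX8.

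**Figure D1:**
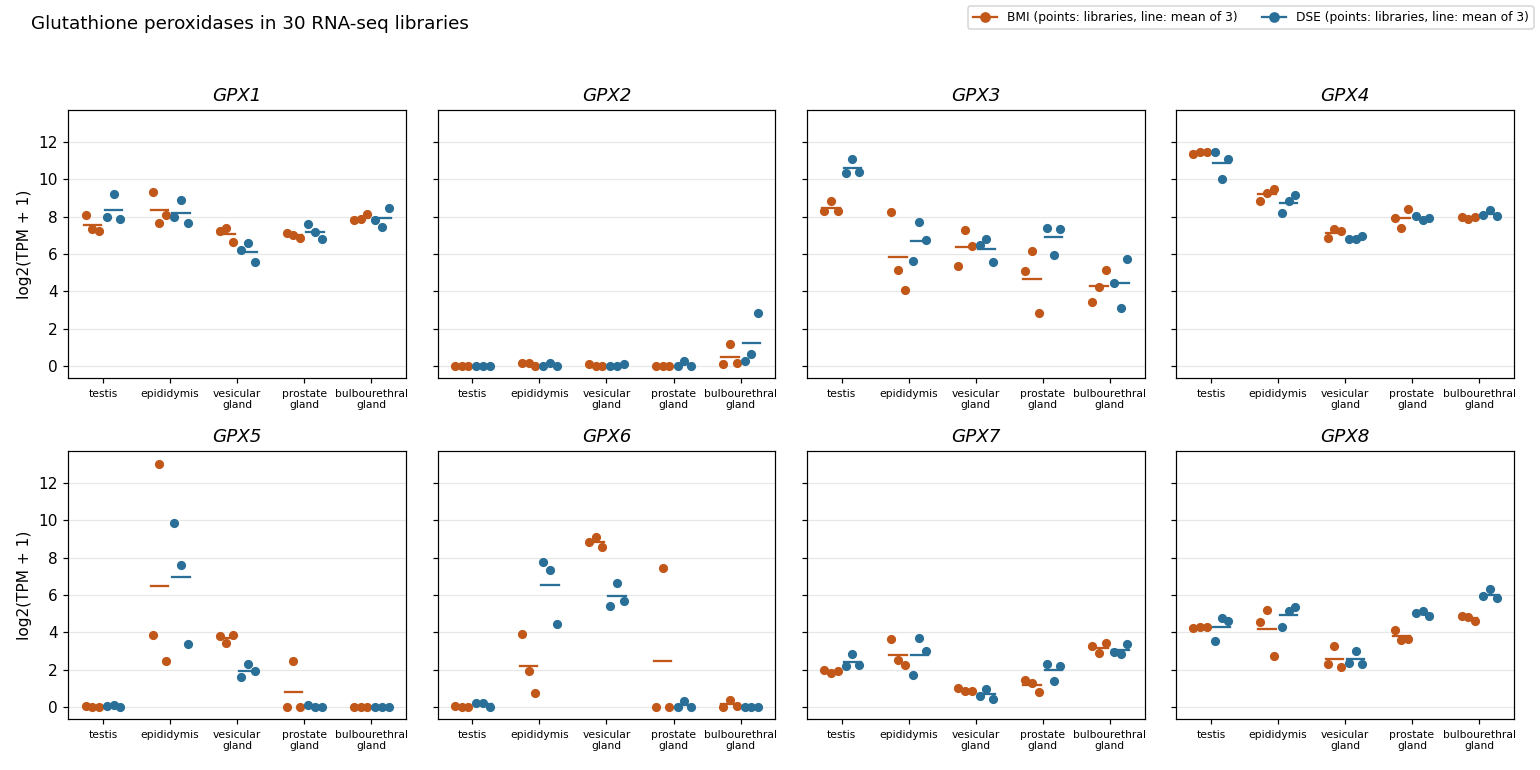
Level of each glutathione peroxidase in the 30 RNA-seq libraries, 1 panel per gene, as log2(TPM + 1) by gland, with 1 point per library coloured by breed and a line at the mean of the 3 libraries of a breed. GPX4 and GPX3 stand highest in testis, GPX5 spreads from 4.42 to 8449 TPM in epididymis, and GPX6 is highest in BMI vesicular gland.

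Each gland was compared with the mean of the other 4 on the log2(TPM + 1) scale with limma, and a gene was called at an adjusted p below 0.05 over all tested genes and a log2 difference of at least 1. The fit pools a gene's spread over all groups of breed and gland. Where glands are said below not to differ beyond their spread, this pooled spread is meant. Of 35 comparisons of 7 members in 5 glands, 7 were called higher and 10 lower. Of all tested genes, testis had 34.5% called higher and 12.7% lower, and epididymis 15.1% and 6.55%. The same shares were 8.44% and 12.0% for bulbourethral gland, 3.70% and 12.8% for prostate gland, and 2.96% and 30.0% for vesicular gland. Between pairs of glands, 40 of 70 member comparisons were called, against 33.1% of all gene and pair combinations. Differences between glands were thus common among all genes, and the members are described below by the size and order of their levels.

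**Figure D2:**
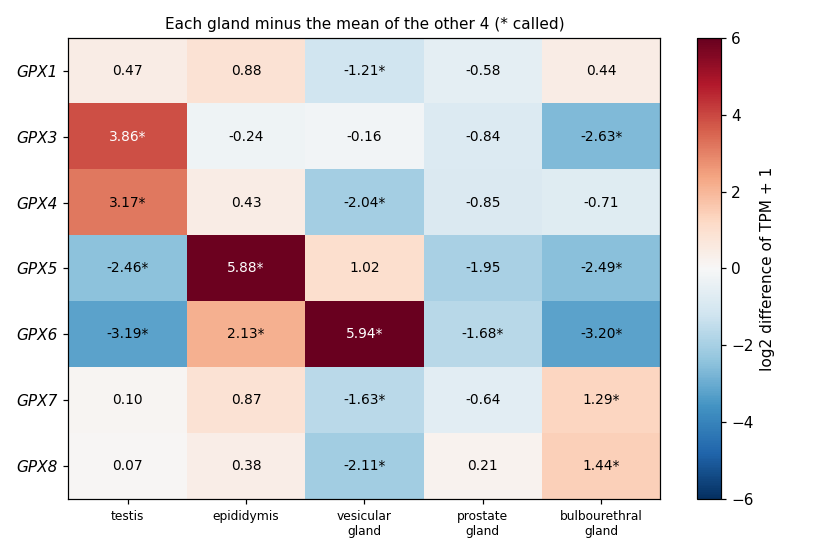
Difference of each tested member in each gland from the mean of the other 4 glands, in log2(TPM + 1) units by limma, as a colour grid of 7 genes by 5 glands with an asterisk on called differences. The largest positive differences are GPX6 in vesicular gland (5.94), GPX5 in epididymis (5.88), GPX3 in testis (3.86) and GPX4 in testis (3.17).

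GPX4, which reduces lipid hydroperoxides within membranes, was the family's most abundant member in 5 of 6 testis libraries (GPX3 was ahead of it in DSE replicate 2). Its level there was 2668, 2835 and 2834 TPM in BMI and 2840.3, 1048 and 2195 TPM in DSE, and every other library lay between 109 and 712 TPM. All 6 testis libraries were above all 24 others, as for 23.8% of tested genes, and the log2 difference from the other glands was 3.17 (SE 0.16, adjusted p = 5.30e-15). The lowest testis value came from DSE replicate 2, the library with the low spermatid level. Without it the difference was 3.38.

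In the other glands GPX4 fell stepwise. Epididymis followed at 518 ± 149 TPM (294 to 712), above bulbourethral gland at 265 ± 31.8 (log2 difference 0.91, adjusted p = 0.00108, under the called size). Bulbourethral and prostate gland (249.6 ± 56.8) did not differ beyond their spread (adjusted p = 0.872). Vesicular gland was lowest at 128 ± 22.5 TPM (109 to 160.0), with all 6 libraries below all 24 others, as for 1.60% of tested genes. Its log2 difference from the other glands was -2.04 (SE 0.16, adjusted p = 5.91e-10).

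Testis also used other GPX4 first exons. The transcript with the RefSeq first exon, ENSSSCT00000105430, held 95.5% of the gene's TPM in the other glands and 73.4% in testis, a difference of -22.1 percentage points (adjusted p = 2.07e-13). The Iso-seq transcript PB.10752.3, whose first exon lies inside the first RefSeq intron at chr2:77323073-77323724, took up most of that difference. It stood at 449.6, 422 and 507 TPM in BMI testis and at 492, 96.1 and 344 TPM in DSE testis. Outside testis its highest value was 6.78 TPM, in BMI epididymis replicate 2, which also had the highest summed spermatid level of the epididymis libraries (1049 TPM against 1.61 to 255). Its share of the gene was 15.3% ± 3.20 in testis and 0.294% on average elsewhere (adjusted p of the difference in share 2.95e-12), and its level differed by 7.69 on the log2 scale (SE 0.29, adjusted p = 2.77e-17).

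The coding parts of both first exons are shown because they give the protein different starts. Arginine codons are in capitals, the reading frame starts at the first base, and both are on the minus strand of Sscrofa11.1.
PB.10752.3 first exon: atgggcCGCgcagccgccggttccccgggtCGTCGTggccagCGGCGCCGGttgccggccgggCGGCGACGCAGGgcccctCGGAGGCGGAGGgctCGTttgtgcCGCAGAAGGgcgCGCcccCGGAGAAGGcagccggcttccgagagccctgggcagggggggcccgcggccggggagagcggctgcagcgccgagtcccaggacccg
RefSeq first exon: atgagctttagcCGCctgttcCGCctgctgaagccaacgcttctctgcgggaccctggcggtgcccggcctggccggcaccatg
The first is chr2:77323073-77323282 and the second chr2:77323802-77323885. Of the 70 codons of the PB.10752.3 exon, 22 (31.4%) encode arginine, against 2 of 28 (7.14%) in the RefSeq exon and 11 of 197 (5.58%) in the whole RefSeq coding sequence. An arginine-rich start encoded by an alternative first exon is the known feature of the nuclear form of GPX4 in sperm, which packs its DNA with arginine-rich protamines. Protein was not measured here.

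A further pair of testis transcripts started from the same intron. PB.10752.6, with a first exon of 70 bases at chr2:77323628-77323697, reached 126 ± 37.0 TPM and 5.26% ± 0.272 of the gene in testis and 1.26 TPM at most elsewhere. PB.10752.4, with a first exon at chr2:77323497-77323708, had a median of 33.6 TPM in testis (11.03 to 42.6) and 0.764 TPM at most elsewhere. PB.10752.1 (20.1 to 66.4 TPM in testis) and PB.10752.2 (15.6 to 82.2 TPM) kept the RefSeq first exon with a longer 5′ end and retained introns. The Ensembl transcript ENSSSCT00000051893, with a first exon at chr2:77323091-77323312 in the same intron, was at 3.93 ± 2.38 TPM in testis and 2.87 TPM at most elsewhere, and was called higher in testis (log2 difference 1.31, adjusted p = 5.12e-06) with overlapping ranges. In testis the PB.10752.3 share was 14.9% to 17.9% in all libraries but DSE replicate 2, where it was 9.16%.

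**Figure D3:**
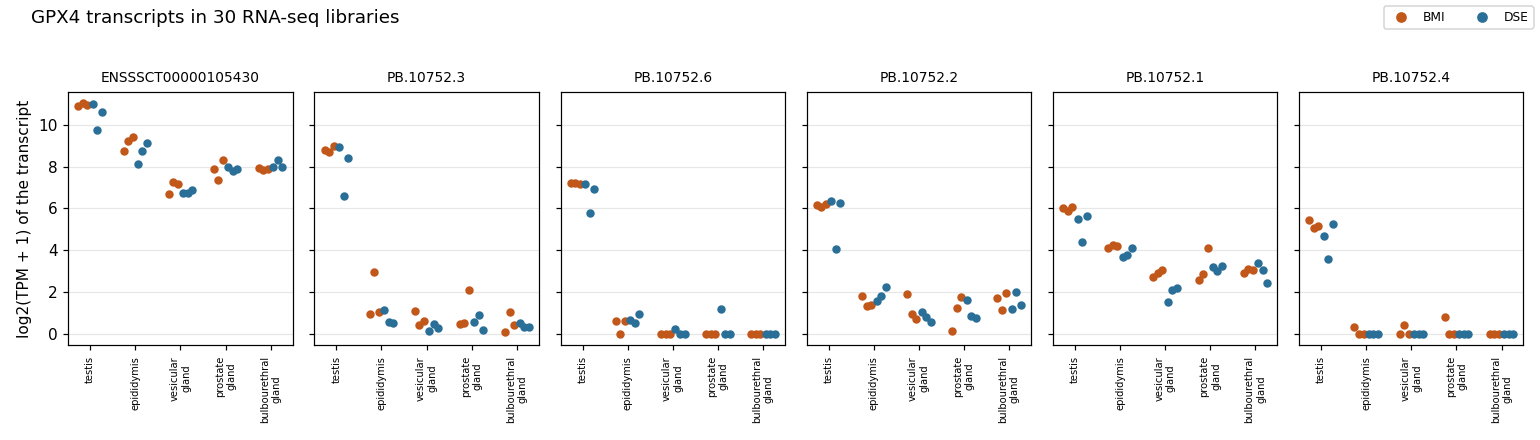
Level of 6 GPX4 transcripts in the 30 RNA-seq libraries, 1 panel per transcript, as log2(TPM + 1) by gland, with 1 point per library coloured by breed. The RefSeq-type transcript is present in every gland, whereas outside testis PB.10752.3 stays at or below 6.78 TPM, PB.10752.6 at or below 1.26 TPM and PB.10752.4 at or below 0.764 TPM.

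Full-length reads gave the alternative GPX4 start a larger share. Of 331 full-length GPX4 reads, 313 came from testis (142 from BMI and 171 from DSE). PB.10752.3 took 140 of the 313 (44.7%, Wilson 95% interval 39.3% to 50.3%), and PB.10752.5, which matched ENSSSCT00000105430 at every splice junction, took 155 (49.5%, 44.0% to 55.0%). These intervals cover counting error only, and the share among full-length reads was above the 15.3% from TPM. The other glands had 1 to 4 GPX4 reads per library, too few for a share.

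GPX3, the secreted plasma form, was the second member with its peak in testis. It stood at 311, 461 and 313 TPM in BMI testis and at 1295, 2166 and 1350.0 TPM in DSE testis. Its highest value elsewhere was 308 TPM, in BMI epididymis replicate 1, so that the 6 testis libraries lay above all 24 others. The log2 difference from the other glands was 3.86 (SE 0.49, adjusted p = 1.27e-07). In order of mean log2 level, vesicular gland (88.1 ± 43.1 TPM), epididymis (119.9 ± 115) and prostate gland (82.3 ± 66.1) followed with no difference beyond the spread between neighbours (adjusted p = 0.957 and 0.580). Bulbourethral gland did not differ from prostate gland beyond the spread (adjusted p = 0.118) and was lowest at 23.7 ± 16.7 TPM (7.69 to 51.5), with a log2 difference from the other glands of -2.63 (SE 0.49, adjusted p = 8.31e-05). Smooth muscle markers, all 5 of them at 1 TPM or more in every library, summed to 150.1 to 649 TPM in bulbourethral gland, 206 to 3485 in prostate gland, 620 to 4363 in vesicular gland and 2291 to 20837 in epididymis, against 136 to 287 TPM in testis. Within epididymis the highest GPX3 values (308, 207 and 107.2 TPM) came from the libraries with most of these markers (13745, 20837 and 7978 TPM). The same 3 libraries, in the order of their GPX3, were also highest in endothelial (525, 230 and 177 TPM), red blood cell (2679, 1626 and 1021 TPM) and accessory gland markers (3830, 829 and 242 TPM). The part of these cells in the GPX3 levels was not tested.

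Nearly all GPX3 signal went to a long-read model. PB.8572.1, 1 of 2 Iso-seq models and the only one with over 3 reads, held 841 of 844 full-length reads and an average of 99.9% or more of the gene's TPM in every gland. The pair of Ensembl GPX3 models leaves 30 bases around the catalytic codon out as an intron (chr16:71984083-71984112), while PB.8572.1 keeps the codon within an exon. GPX3 full-length reads were 95 in BMI testis (exact Poisson 95% interval 76.9 to 116, of 455023 reads in the table) and 512 in DSE testis (469 to 558, of 457778), 1 library each.

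GPX1, the cytosolic form, was present at over 40 TPM in every library and had no peak that was called. Epididymis (342 ± 181 TPM, 198 to 645) and testis (274 ± 159, 147 to 582) led the order without differing beyond their spread (adjusted p = 0.318), and neither did testis and bulbourethral gland (247 ± 59.8, adjusted p = 0.962). Prostate gland followed at 138 ± 28.7 TPM. Vesicular gland was lowest at 104 ± 45.2 TPM (46.0 to 165), and GPX1 was called lower there (log2 difference -1.21, SE 0.23, adjusted p = 6.67e-05). That call ended when libraries were rescaled by size factors (-0.36, adjusted p = 0.135).

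GPX2, the form of gut epithelium, was nearly silent. It was listed at 0 in all 6 testis libraries and reached 0.180 TPM at most in epididymis, vesicular gland and prostate gland. Bulbourethral gland was the exception, with a lowest value of 0.0752 TPM, a median of 0.385 and a highest of 6.13 in DSE replicate 3, and only that library and BMI replicate 2 (1.23 TPM) reached 1 TPM. These 2 libraries also had the highest summed leukocyte markers of the gland (372 and 336 TPM against 58.1 to 243), and DSE replicate 3 the most skeletal muscle markers, and their part was not tested. No full-length read was assigned to it in the 10 libraries, which allows up to 3 of the 231413 to 458697 reads that the table holds for each.

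GPX5, the selenium-free epididymal form, was the least even member. Its level in epididymis was 13.7, 8449 and 4.42 TPM in BMI and 928, 194 and 9.24 TPM in DSE, a span of 1910.0 times among 6 libraries of the same gland. In the other glands it was 2.01 to 13.6 TPM in vesicular gland, 0 to 4.52 TPM in prostate gland and 0.0735 TPM at most in testis, and it was listed at 0 in all 6 bulbourethral libraries. 4 of 6 epididymis libraries were above all 24 others. The difference from the other glands was 5.88 on the log2(TPM + 1) scale (SE 0.90, adjusted p = 7.54e-06), and 4.23 without BMI replicate 2. Epididymis was above vesicular gland (adjusted p = 0.00508). Vesicular gland was not called against prostate gland (log2 difference 2.38, SE 1.14, adjusted p = 0.116), where GPX5 was 0.0847 TPM at most outside BMI replicate 2. That SE is pooled over all glands, epididymis included, and is not the spread of this pair. Without BMI epididymis replicate 2, GPX5 was called higher in vesicular gland than the mean of the other glands (1.43, adjusted p = 0.0141 by limma). With all libraries it was not (1.02, adjusted p = 0.302).

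The epididymis libraries with most GPX5 also differed in genes known to vary along the duct. BMI replicate 2 had 9677 TPM of LCN8, a lipocalin gene, and 10294 TPM of RNASE10, against 21.2 and 20.1 TPM at most in the other 5 libraries. DSE replicate 1, second for GPX5, had 8045 TPM of the cystatin gene CST11 but the lowest values of CRISP1 (21.3 TPM against 1100.0 to 2759), a sperm-binding protein gene, and of the beta-defensin gene DEFB129 (0.812 TPM). DEFB129 was highest in DSE replicate 3 (5193 TPM), where GPX5 was at 9.24 TPM, so the markers did not all follow GPX5. The summed level of the 8 epididymal markers was 41830 TPM in BMI replicate 2 and 1726 to 10999.8 TPM in the others, whereas ADAM7, an epididymal surface protein gene, was at 468 to 2780.2 TPM in all 6. DSE replicate 1 had the lowest median transcript integrity number, a measure of RNA quality, of all RNA-seq libraries in the study's supplement. Whether RNA quality had a part in its values, or the libraries held different stretches of the epididymis, was not tested.

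Full-length reads of GPX5 had the same gland order. Of 2004 reads, 1993 came from epididymis, 8 from vesicular gland and 3 from prostate gland. The BMI epididymis library held 1705 reads (exact Poisson 95% interval 1625 to 1788, of 458697 in the table) and the DSE library 288 (256 to 323, of 231413), 1 library each and so without a replicate check. PB.17390.4 took 1888 of the 1993 reads (94.7%, Wilson 93.7% to 95.6%). In TPM that transcript held 13.7% ± 6.51 of the gene in epididymis, and the Ensembl transcript ENSSSCT00000001312, which none of the 8 Iso-seq isoforms matched in full, held 82.1% ± 6.57. The Ensembl transcript begins at chr7:22291986 and PB.17390.4 at chr7:22289161, and they are 1388 and 2807 bases long.

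GPX6 was highest in the vesicular gland of BMI. It stood there at 461, 553 and 384 TPM in BMI and at 42.1, 101 and 50.2 TPM in DSE, a log2 difference from the other glands of 5.94 (SE 0.67, adjusted p = 4.98e-08), with the 3 BMI libraries above all 24 libraries of other glands. Epididymis was second at 13.9, 2.78 and 0.646 TPM in BMI and 219, 158 and 20.5 TPM in DSE, below vesicular gland with the breeds pooled (adjusted p = 0.00319). In DSE alone the order was the other way, with a mean of 132 ± 102 TPM in epididymis and 64.3 ± 31.7 TPM in vesicular gland (n = 3 each, ranges overlapping), a difference that was not tested. Its call against the mean of the other glands (2.13, SE 0.67, adjusted p = 0.00861) ended under size factors (1.60, adjusted p = 0.0530). Testis and bulbourethral gland had 0.285 TPM at most.

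Prostate gland had GPX6 in 1 library. BMI replicate 2 held 175 TPM, and the other 5 held 0.235 TPM at most. The same library carried the vesicular gland's products, with 52018 TPM of AWN, 73331 TPM of SPMI and 79994 TPM of PSP-I, and it alone of the 6 had over 0.1 TPM of GPX5 (4.52). Without it GPX6 in prostate gland fell by 2.92 on the log2 scale relative to the other glands, and with it by 1.68 (adjusted p = 0.0399). That call ended without any 1 of the other 5 prostate libraries, without DSE vesicular gland replicate 2 (adjusted p = 0.0513 to 0.217) and without the filter on low genes (0.0864). Whether vesicular tissue was in that sample was not tested. In epididymis, AWN was highest in BMI replicate 1 (2446 TPM) and DSE replicate 2 (679 TPM), and 94.4 TPM at most in the other 4.

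**Figure D4:**
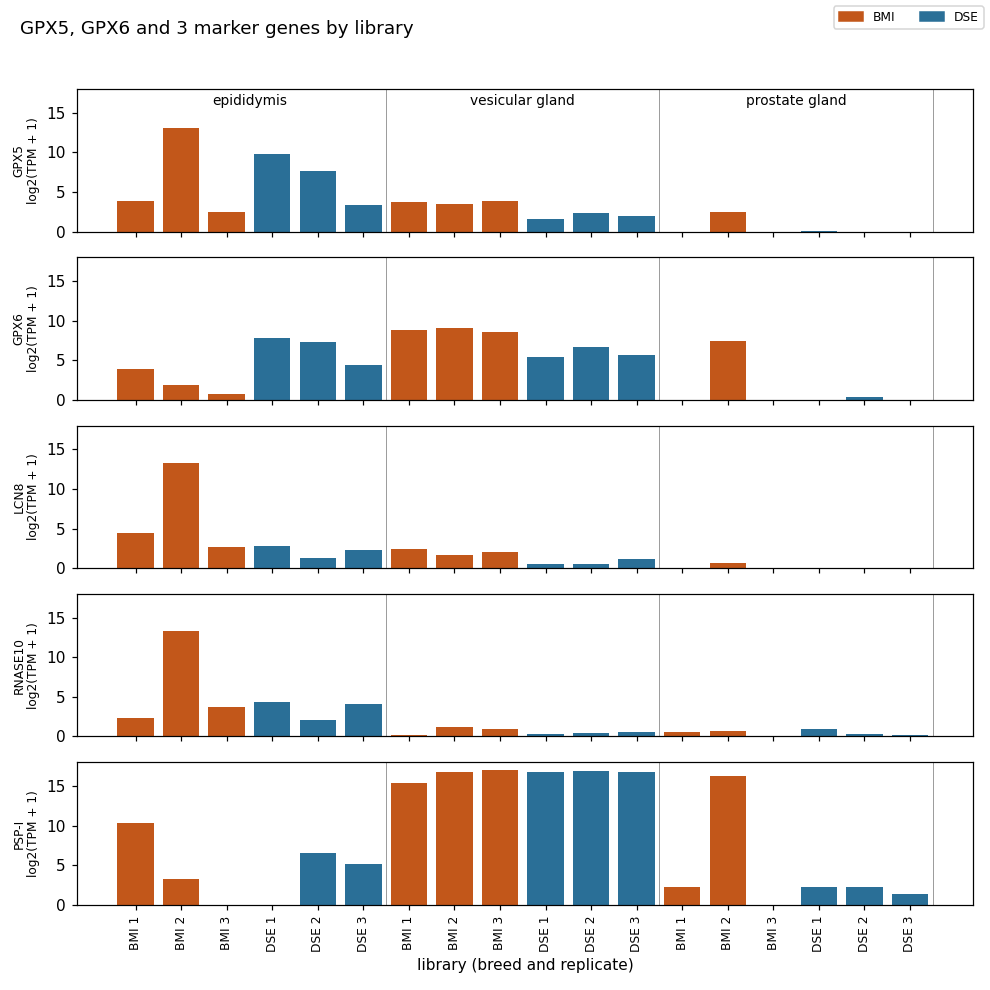
Level of GPX5, GPX6, the epididymal genes LCN8 and RNASE10 and the vesicular gland gene PSP-I as log2(TPM + 1) in the 18 libraries of epididymis, vesicular gland and prostate gland, with 1 bar per library coloured by breed. GPX5, LCN8 and RNASE10 peak together in BMI epididymis replicate 2, and GPX6 with PSP-I stands out in BMI prostate gland replicate 2.

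The GPX5 and GPX6 loci lie head to head. The first bases of the Iso-seq transcripts PB.17390.1 (GPX5, plus strand) and PB.17391.6 (GPX6, minus strand) lie 876 bases apart. PB.17390.1 is a rare form, with 3 of 2004 GPX5 full-length reads and 0 TPM in every vesicular gland library. PB.17390.4, with most full-length reads, and ENSSSCT00000001312, with most TPM in epididymis and vesicular gland, begin farther off. PB.17391.6 had 4 full-length reads, all from DSE epididymis, while the 3 vesicular gland reads of GPX6 were PB.17391.4. In TPM, PB.17391.6 held 78.7% ± 7.04 of GPX6 TPM in vesicular gland and starts at chr7:22284812, upstream of the RefSeq gene, which ends at 22267992, and PB.17391.5, with the same first exon, held 6.59% ± 3.36. Another Iso-seq transcript, PB.17391.4, reaches chr7:22306563 on the minus strand and shares 25 exonic bases with GPX5. The strand setting of the counting is not given in the sources used here, so reads in those bases cannot be told apart by strand. GPX6 had 9 full-length reads, 6 from DSE epididymis and 3 from BMI vesicular gland.

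GPX7 and GPX8, the cysteine forms of the endoplasmic reticulum, had their highest mean level in bulbourethral gland. GPX7 was at 7.80 ± 1.55 TPM there (6.26 to 9.59), with a log2 difference from the other glands of 1.29 (SE 0.21, adjusted p = 1.88e-05), and did not differ from epididymis (6.79 ± 4.08 TPM) beyond the spread (adjusted p = 0.373). GPX8 was at 27.8, 26.9 and 23.0 TPM in BMI and 59.8, 78.7 and 55.4 TPM in DSE bulbourethral gland, a log2 difference of 1.44 (SE 0.24, adjusted p = 2.57e-05). Only the 3 DSE libraries were above all 24 others. The steps down to epididymis (0.85, adjusted p = 0.0331) and to prostate gland (0.99, adjusted p = 0.0255) were under the called size. Epididymis (median 28.4 TPM, 5.60 to 39.7), prostate gland (mean 22.1 ± 10.3) and testis (mean 19.2 ± 5.44) followed with no difference beyond the spread between neighbours (adjusted p = 0.765 and 0.772).

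Both were lowest in vesicular gland. GPX7 was at 0.738 ± 0.261 TPM (log2 difference -1.63, SE 0.21, adjusted p = 4.30e-07) and GPX8 at 5.09 ± 2.06 TPM (-2.11, SE 0.24, adjusted p = 7.80e-08). A few secretory genes fill much of a vesicular gland library, and the median log2 difference of the genes that passed the filter under both scalings was -0.71 there as deposited and -0.20 after size factors. With size factors GPX4 (-1.18), GPX7 (-1.16) and GPX8 (-1.36) were still called lower in vesicular gland, while GPX1 was not, and GPX6 stayed higher (6.73).

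GPX8 also changed in transcript usage. Its 2-exon Ensembl transcript ENSSSCT00000089414 held 27.8% of the gene's TPM in testis and 11.4% elsewhere (16.4 percentage points, adjusted p = 0.000228), and PB.8300.22 held 62.0% against 75.5% (-13.5 points, adjusted p = 0.00452). The catalytic codon lies in an intron of ENSSSCT00000089414 and in an exon of PB.8300.22. The third form, PB.8300.21, held between 4.87% of GPX8 (bulbourethral gland) and 8.82% (epididymis) on average and was not called for usage in any gland. With the GPX4 pair, 4 of 8 member transcripts were called for usage in testis, where 12.5% of tested transcripts were called for higher and 9.63% for lower usage. In level, 8 of 23 member transcripts were called higher in testis and 4 lower, against 28.4% and 9.53% of tested transcripts. Among the 8, PB.10752.4 and PB.10752.6 passed the filter only through testis (0.764 and 1.26 TPM at most elsewhere), so their calls followed largely from the filter.

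Breeds were compared within each gland by limma on its 6 libraries, and 3 members were called. None of the 3 was called in 1 fit of all 30 libraries (adjusted p = 0.172 for GPX3, 0.671 for GPX5 and 0.316 for GPX6) or without the filter on low genes (0.133, 0.142 and 0.139). GPX3 was higher in DSE testis by 2.13 on the log2 scale (SE 0.30, adjusted p = 0.0299, 4.43 times the BMI mean), where 0.213% of tested genes were called higher and 0.372% lower in DSE. The breeds did not overlap for GPX3, as for 24.7% of genes in testis. The summed Leydig cell level did not overlap either, at 18595 to 21823 TPM in BMI and 23927 to 63514 TPM in DSE, nor did the summed spermatocyte level, at 200.2 to 235 TPM in BMI and 61.9 to 194 TPM in DSE, nor the 7 accessory gland markers, at 41.5 to 52.3 TPM in BMI and 62.4 to 146 TPM in DSE. Their part in the result was not tested. Leaving out DSE replicate 2 kept the call (1.89, adjusted p = 0.0163). Leaving out any BMI testis library or DSE replicate 1 ended it (adjusted p = 0.0595 to 0.289), with a log2 difference of 2.03 to 2.32.

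In vesicular gland the neighbours GPX5 and GPX6 were both lower in DSE. GPX6 fell by 2.93 on the log2 scale (SE 0.35, adjusted p = 0.00374), and GPX5, at 12.7, 9.71 and 13.6 TPM in BMI and 2.01, 3.95 and 2.74 TPM in DSE, fell by 1.75 (SE 0.29, adjusted p = 0.0194). Lower calls made up 0.624% of tested genes in this gland, higher calls 0.197% and non-overlapping breeds 27.9%. The summed accessory gland markers overlapped between breeds (229603 to 314160 TPM in BMI, 296433 to 324781 in DSE), but FOXA1 among them did not (7.53 to 18.3 TPM in BMI, 1.87 to 6.41 in DSE). The 4 glandular epithelium markers summed to 776 to 955 TPM in BMI and 558 to 711 TPM in DSE, without overlap and lower in DSE like GPX5 and GPX6. The 8 epididymal markers did the same at a low level (4.55 to 8.77 and 0.846 to 1.81 TPM), and the skeletal muscle markers were higher in DSE (4.51 to 17.8 against 0.311 to 2.65 TPM). The part of these cells in the result was not tested. Beside the 2 settings above that ended its call, GPX6 was called whichever of the 6 libraries was left out and with size factors (-2.41, adjusted p = 0.00672). GPX5 was not called with size factors (-1.41, adjusted p = 0.0664), nor without BMI replicate 1 or 3 or DSE replicate 3 (adjusted p = 0.0510 to 0.101).

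GPX6 ran the other way in epididymis. Each DSE library was above each BMI library, as for 5.34% of genes there, and the log2 difference was 4.33 (SE 1.11, unadjusted p = 0.00623 by limma), but its adjusted p was 0.999863. No member was called there, 1 of 7 had an unadjusted p below 0.05, and 0% of genes were called in either direction. The share of all genes with an unadjusted p below 0.05 was not computed for this or any other breed comparison. The change of the breed difference between glands was tested as an interaction over all 30 libraries. It was called for no member, with GPX6 nearest (unadjusted p = 0.00215, adjusted p = 0.0709) and the only member of 7 with an unadjusted p below 0.05, and for 2.59% of genes. Without BMI prostate gland replicate 2, the GPX6 interaction had an adjusted p of 0.000284.

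GPX8 had separate breed ranges in a pair of glands without being called. Of 5 members tested in each, 3 in prostate gland and 1 in bulbourethral gland had an unadjusted p below 0.05 by limma. That share was not computed for all genes, so these counts say nothing particular to the members. In prostate gland it stood at 16.2, 11.09 and 11.7 TPM in BMI and 31.5, 34.2 and 27.8 TPM in DSE (log2 difference 1.22, SE 0.21, adjusted p = 0.0649), and 39.7% of genes did not overlap there, with 0.318% called higher and 0.0370% lower. In bulbourethral gland the difference was 1.27 (SE 0.22, adjusted p = 0.171), where 10.7% of genes did not overlap, 0.0799% were called higher and 0.00726% lower. Without BMI prostate gland replicate 2, both GPX8 (1.12, adjusted p = 0.0295) and GPX3 (2.93, adjusted p = 0.0406) were called in prostate gland. GPX3 stood there at 32.6, 69.3 and 6.19 TPM in BMI and 166, 60.4 and 159.9 TPM in DSE, and the summed smooth muscle markers at 408, 2096 and 206 TPM in BMI and 2849.7, 1631 and 3485 TPM in DSE, so both separated by breed without that library. The summed accessory gland markers were 163433 to 294306 TPM in BMI and 104194 to 151678 TPM in DSE prostate gland. The summed Sertoli cell markers, of which SOX9 had the highest mean there, also separated, at 58.5 to 83.0 TPM in BMI and 83.3 to 96.2 TPM in DSE. The part of any of these markers in these values was not tested. Across all glands no member was called between breeds by limma, against 0.221% of genes called higher and 0.166% lower in DSE. Of 7 members, 2 had an unadjusted p below 0.05, a share not computed for all genes. GPX8 had the smallest adjusted p there (log2 difference 0.66, SE 0.19, adjusted p = 0.0648).

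The long reads resolved 25 isoforms of the 7 detected members with 3274 full-length reads. GPX5 had 2004, GPX3 844, GPX4 331, GPX1 40, GPX8 25, GPX7 21 and GPX6 9. Reading frames came from the authors' isoform table, where a program that reads TGA as a stop would end a selenoprotein at its catalytic codon. Of 12 isoforms of GPX1, GPX3, GPX4 and GPX6 (1224 reads), none had a predicted frame running through that codon. In 7 (331 reads, from GPX4 and GPX6) the frame ended at it, and all 7 were marked as targets of nonsense-mediated decay. In GPX1 (40 reads) the frame started after it, and 4 isoforms (853 reads) were given no coding sequence, the main GPX3 isoform among them.

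The cysteine members were predicted through the codon. Of 13 isoforms of GPX5, GPX7 and GPX8 (2050.0 reads), 10 (2044 reads) had a frame that ran through it, and 4 (1941 reads) had the full RefSeq length. PB.17390.4 of GPX5 was predicted at 219 residues, GPX7 at 186 and GPX8 at 209, each the RefSeq length. PB.10752.3 and PB.10752.5 of GPX4 were predicted at 114 and 72 residues against 197, GPX6 at 126 and 109 against 221, and GPX1 at 145 against 206. In TPM, GPX1 came from ENSSSCT00000091800 and GPX7 from ENSSSCT00000050914 almost alone. Ensembl models handled the codon in another way for some transcripts. In GPX6 (ENSSSCT00000001311) a gap of 3 bases removed it alone, and in 1 model each of GPX1 and GPX2 a gap of 39 bases and in 1 of GPX4 a gap of 30 bases spanned it.

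**Figure D5:**
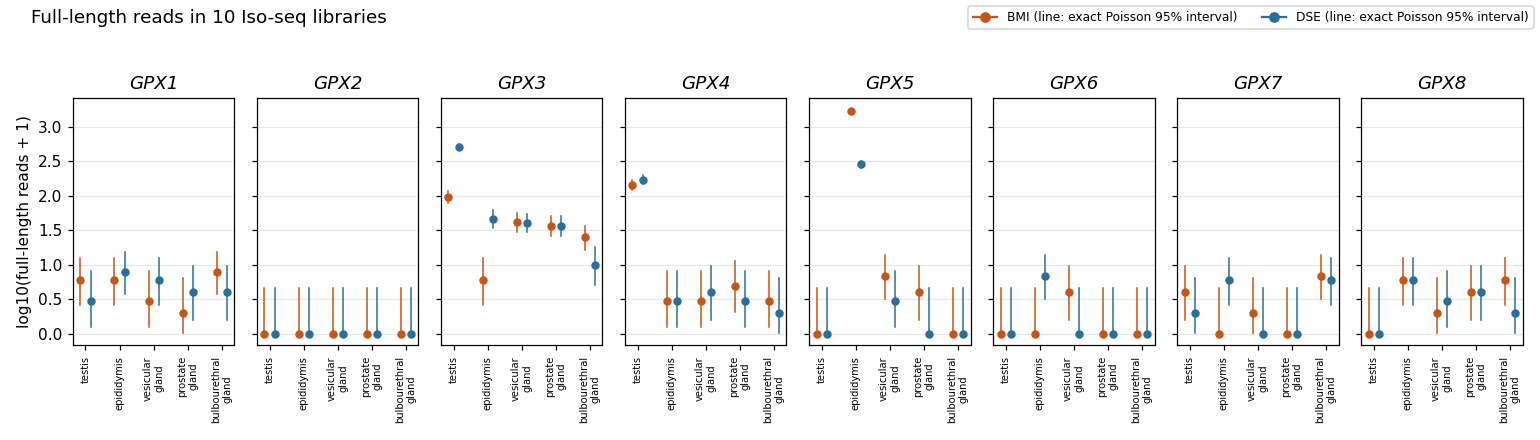
Full-length Iso-seq reads of each glutathione peroxidase in the 10 libraries (1 per breed and gland) as log10(reads + 1), with bars for exact Poisson 95% intervals that cover counting error only. GPX5 in epididymis reaches 1705 reads in BMI and 288 in DSE, GPX3 in testis 95 and 512, and GPX2 has 0 throughout.

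Genes of the same biochemistry gave the members context, by lists drawn up for these glands. In testis, where 34.5% of genes were called higher, 9 of 13 tested glutathione transferases were called higher and 0 lower, with a median log2 difference of 2.49 against 0.31 for all tested genes. GSTM3 averaged 2394 TPM in testis and 30.2 elsewhere, GSTO2 134 and 0.564, and GSTT4 42.9 and 0.134. Of 17 thioredoxins and peroxiredoxins 11 were higher and 2 lower (median 1.17), with NME8 (99.8 TPM against 0.0401) and TXNDC8 (48.9 against 0.0291), both thioredoxin genes of sperm, and SRXN1 (73.7 against 7.12), which repairs overoxidised peroxiredoxins. All 4 superoxide dismutases and catalase were higher (median 1.71), with CAT, which breaks down hydrogen peroxide, at 157 against 51.1 TPM.

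Genes that serve selenoproteins came next. Of 10 genes for selenium supply and selenocysteine insertion, 5 were called higher in testis and 0 lower, beside 34.5% and 12.7% of all genes (median log2 difference 0.97 against 0.31). SECISBP2, which binds the element that recodes UGA, averaged 84.7 TPM in testis and 17.3 elsewhere, and TRNAU1AP, a partner of the selenocysteine tRNA, 38.6 and 18.7. Of 14 other selenoproteins 1 was higher and 2 lower (median -0.05). The higher gene was SELENOV, a testis selenoprotein, at 242 against 0.215 TPM.

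Other lists in testis were mixed, and are to be read against the same 34.5% of all genes higher and 12.7% lower. For lipid peroxidation and ferroptosis, 6 of 13 were higher and 1 lower, with POR (236 against 58.7 TPM), AIFM2 (60.8 against 15.9), which regenerates ubiquinol, and FTL (7966 against 2115), a ferritin subunit. For the NRF2 pathway 3 of 7 were higher and 1 lower, with NQO1 at 294 against 7.97 TPM and KEAP1 at 89.7 against 32.2. For glutathione synthesis and recycling 5 of 18 were higher, with PGD at 182 against 46.4 TPM, and for enzymes that make hydrogen peroxide or superoxide 3 of 14 were higher and 4 lower, with AOX1 (31.7 against 1.22) and ERO1B (129 against 14.7) up and CYBA, an NADPH oxidase subunit, down at 12.4 against 154 TPM.

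Outside testis the lists held fewer genes that set a gland apart. In epididymis NFE2L2, which encodes NRF2, averaged 92.2 TPM against 42.7 elsewhere, with all 6 libraries above the other 24 (3.01% of tested genes), and 1 of 7 genes of its pathway was called, beside 15.1% of all genes called higher there. In vesicular gland, 10 of 17 thioredoxins and peroxiredoxins, 7 of 13 glutathione transferases, 7 of 14 other selenoproteins and 4 of 4 superoxide dismutases and catalase were lower, beside 30.0% of all genes. PRDX3 was at 36.0 against 199.9 TPM and SELENOM at 26.6 against 249 TPM. Of 14 enzymes that make hydrogen peroxide or superoxide, 5 were higher there and 4 lower, beside 2.96% and 30.0% of all genes. In bulbourethral gland 5 of 14 other selenoproteins were higher and 1 lower, beside 8.44% and 12.0% of all genes, led by SELENOM at 539 against 120.4 TPM. In prostate gland 7 of 13 glutathione transferases were lower and 0 higher, beside 12.8% and 3.70% of all genes. ANPEP, an aminopeptidase of glutathione breakdown products, was higher there (187 against 25.8 TPM), as were 3 of 18 genes of its list, with 1 lower. PRDX1 was lower (179.5 against 401 TPM), as were 4 of 17 thioredoxins and peroxiredoxins, with 1 higher.

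The genes with the most similar level over the 30 libraries differed from member to member. Similarity was Pearson's r of log2(TPM + 1) among 13876 named genes, and libraries of 1 gland share their gland, so r is a description. AZIN2 (0.97), C20orf27 (0.97) and SECISBP2 (0.97) were closest to GPX4, and GALNT16 (0.92), CSDC2 (0.91) and SLC8A2 (0.89) to GPX3. For GPX5 they were DEFB113 (0.89), CPT1C (0.89) and DEFB110 (0.88), the first and last of which encode beta-defensins, and for GPX6 they were IL6 (0.91), FAM171A2 (0.88) and RASD1 (0.88). GPX1 was closest to INTS6L (0.88), RAB5C (0.88) and CC2D2A (0.87), GPX7 to ATG7 (0.94), RHOA (0.93) and LAMTOR5 (0.93), and GPX8 to C15orf40 (0.91), GNPDA2 (0.90) and MORC4 (0.89).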

How the data were processed

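Tissues came from BMI and DSE boars, with 30 RNA-seq and 10 Iso-seq libraries; 30 small RNA libraries were not used here. TPM values were deposited by the authors, who quantified short reads with Salmon (1.9.0 in the submitters' processing notes) over a merged annotation on Sscrofa11.1, namely Ensembl 107 plus the Iso-seq isoforms outside full and incomplete splice matches. Long-read isoforms that match an Ensembl transcript are therefore quantified through it. Library preparation is given as poly-T purification by the methods and as rRNA depletion by the labels. Full-length read counts per isoform were deposited by the authors, who clustered all Iso-seq libraries together, aligned with GMAP and classified isoforms with SQANTI3. That table leaves out reads of isoforms not kept, so its totals are not the library depth. The isoform table and annotation also hold lengths and positions as the authors gave them.

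TPM was summed per gene name; genes at 1 TPM or more in 3 or more libraries were tested in R 4.3.3 with limma 3.58.1 (empirical Bayes without trend) on log2(TPM + 1), with groups of breed and gland in 1 fit of all 30 libraries for glands and on the 6 libraries of a gland (filtered within it) for breeds, and Benjamini-Hochberg adjustment over all tested genes. A call needs an adjusted p below 0.05 and a log2 difference of at least 1 (for usage, 10 percentage points among transcripts with at least 5% of their gene). Fold changes on this scale understate low genes. Sums, intervals and figures used Python 3.11.15 with scipy 1.17.1, pandas 2.3.3, matplotlib 3.10.9 and numpy 2.4.6. Tested on simulated data, the comparison of testis with the other glands called 93 of 100 genes planted at a log2 difference of 1.5 and 99 of 100 at 3 among 19911 genes, and DSE against BMI in testis 36 and 82 of 100, among the 16414 genes of that test. Planted genes had a mean log2(TPM + 1) above 3, and each gene had normal noise of the same size in every group. These rates therefore do not cover low genes or genes whose spread differs between groups. The genome of the reference was the same build as the annotation: 114 of 123 gaps of at least 50 bases between member exons had GT and AG ends.

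All 8 members were described. Of the related lists, the text names called genes whose 6 libraries of a gland lie all above or all below the other 24 (up to 3 higher and 2 lower in testis and epididymis, 1 each way elsewhere), and the 3 genes most like each member. Transcripts with at least 5% of their gene, and the GPX4 transcripts with other starts, were named. Members, lists and tests were chosen with earlier results of these data known. Alternatives were another pseudocount, no filter, size factors, moderation with trend, a replicate block, 1 fit of all 30 libraries for breeds and leaving out each library. Columns of the table that belong to no sample of the series were 0.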

Additional observations from a re-analysis of the deposited data

Results flagged for a closer look

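A member's 6 values in a gland were examined wherever at least 1 library reached 1 TPM. In 8 of 32 such groups, 1 library stood apart, its gap to the next library being larger against the whole range than Dixon's 95% critical value. For normally distributed values chance gives this in about 1 group in 20. Here the values were TPM with both breeds pooled, and some groups near 0 TPM entered only through the library that stood apart. The 8 of 32 can therefore not be set against that share, and the groups are only listed. DSE testis replicate 2 accounts for 3 of them. It had 582 TPM of GPX1 against 147 to 267 in the other 5 testis libraries, 1048 TPM of GPX4 against 2195 to 2840.3, and 6.08 TPM of GPX7 against 2.55 to 3.75. Its summed spermatid markers were the lowest of the 6 testis libraries and its summed Leydig and Sertoli cell markers the highest, and their part in these values was not tested.

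BMI prostate gland replicate 2 accounts for another pair, with 4.52 TPM of GPX5 against 0 to 0.0847 and 175 TPM of GPX6 against 0 to 0.235 in the other 5 prostate libraries. BMI epididymis replicate 2 had 8449 TPM of GPX5 against 4.42 to 928. In bulbourethral gland, DSE replicate 3 had 6.13 TPM of GPX2 against 0.0752 to 1.23, with the highest summed leukocyte (372 TPM) and skeletal muscle markers (1797 TPM) of the gland, and DSE replicate 2 had 327 TPM of GPX4 against 237 to 267.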

How the results depend on the processing

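No called difference changed direction. Among differences that were not called, size factors turned GPX4 (0.43 to -0.08) and GPX8 (0.38 to -0.09) in epididymis, GPX7 (0.10 to -0.01) and GPX8 (0.07 to -0.15) in testis and GPX3 (-0.16 to 0.70) in vesicular gland, and the GPX6 breed difference over all glands went from -0.20 to 0.30 without BMI prostate gland replicate 2. Leaving out single libraries kept the call or its absence for 515 of 539 single values (13 lost a call, 11 gained one), and the other alternatives did so for 109 of 126 (11 lost, 6 gained). Leaving out 1 library gave 7 to 9 higher and 9 to 11 lower member calls between glands, 37 to 42 calls between pairs of glands, 0 to 3 members higher and 1 to 2 lower in DSE within glands, 0 to 1 across glands (GPX3, 1.30, adjusted p = 0.0297 by limma without BMI epididymis replicate 1), 17 to 21 higher and 27 to 32 lower transcript calls over the 5 glands (18 and 29 with all libraries) and 3 to 4 usage calls. The interaction count was 0 to 1, always GPX6, called without BMI epididymis replicate 1, DSE epididymis replicate 3 or any BMI prostate library (adjusted p = 0.000284 to 0.0410). With DSE testis replicate 2 and BMI prostate gland replicate 2 both left out, a choice made after seeing the data, it was 1 (adjusted p = 0.000602), and 3 members were higher in DSE within glands. Members lower in DSE numbered 0 without the filter, 1 with size factors and 0 in 1 fit of all 30 libraries, which also left 0 higher. There the adjusted p was 0.172 for GPX3 in testis, 0.671 for GPX5 and 0.316 for GPX6 in vesicular gland, and without the filter it was 0.133, 0.142 and 0.139, while GPX8 in prostate gland was called (0.0490). The cause was not tested. Over the 40 usage comparisons (8 member transcripts in 5 glands), calls rose from 4 to 13 when any size of difference counted. GPX6 in prostate gland lost its lower call without DSE vesicular gland replicate 2 or any prostate library but BMI replicate 2 (adjusted p = 0.0513 to 0.217) and without the filter (0.0864), as did GPX5 in bulbourethral gland without the filter (0.0537). A pseudocount of 0.1 added GPX5 in vesicular gland (3.07) and prostate gland (-2.94) and GPX7 in epididymis (1.18). No transcript joined a member to another gene, so counting such transcripts gave no other value.

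The replicate numbers were not taken to pair the samples, since 4 of 15 breed pairs of 1 number and 20 of 60 gland pairs of 1 number and breed had a correlation of deviations above 0.1. A replicate block changed no call, with 7 members higher and 10 lower between glands, 40 between pairs of glands, 1 higher and 2 lower in DSE, and 4 usage calls. Of 30 samples, 6 correlated best with their own number in the other breed, and in 59 of 120 combinations of a sample and another gland of its breed the best match had the same number, each among 3 candidates. This is a hint from the data and not from the design. TPM keeps no counts and no floor was computed for members near 0 (GPX2, and GPX5 and GPX6 outside their glands), whose log2 differences depend on the pseudocount.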
